A study of Mus musculus with 25 samples.

Results

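The mitochondrial chromosome of the mouse carries 37 genes, and 8 of their RNAs are described here across 5 ages of the brain: the ribosomal RNAs mt-Rnr1 and mt-Rnr2 and the messenger RNAs mt-Nd1, mt-Nd2, mt-Co1, mt-Nd4, mt-Nd5 and mt-Cytb. They were taken by symbol from the table of counts, through the Ensembl identifiers of the GENCODE M21 annotation, and are 8 of its 47729 genes. The 25 libraries came from brain hemispheres of C57BL/6 mice, a common inbred strain, all of them male, and each of the ages 2, 9, 15, 24 and 30 months had 5 libraries. The labels name no treatment or altered gene, and every library was made with a TruSeq RNA kit from total RNA. All 8 RNAs had at least 30802 counts in each library and passed the filter on low counts in every comparison.

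Mitochondrial DNA is read from both strands into long transcripts that span nearly the whole circle. These are cut at the transfer RNAs, which lie between most of the other genes like punctuation, to free the ribosomal and messenger RNAs. The ribosomal RNAs form the mitochondrial ribosome, and the messenger RNAs encode subunits of the respiratory chain that neurons rely on for most of their ATP. Both ribosomal RNAs lie at the front of the heavy-strand transcript, and a transcription termination factor can bind at the boundary behind them, within the transfer RNA gene mt-Tl1.

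On GRCm38 chromosome M, mt-Rnr1 (ENSMUSG00000064337, the 12S RNA of the small ribosomal subunit) runs from 70 to 1024 and mt-Rnr2 (ENSMUSG00000064339, the 16S RNA of the large subunit) from 1094 to 2675. Behind them on the same strand lie mt-Nd1 (ENSMUSG00000064341, 2751 to 3707), mt-Nd2 (ENSMUSG00000064345, 3914 to 4951), mt-Nd4 (ENSMUSG00000064363, 10167 to 11544) and mt-Nd5 (ENSMUSG00000064367, 11742 to 13565), which encode subunits of complex I, the NADH dehydrogenase. A subunit of complex IV, cytochrome c oxidase, is encoded by mt-Co1 (ENSMUSG00000064351, 5328 to 6872). The cytochrome b of complex III is encoded by mt-Cytb (ENSMUSG00000064370, 14145 to 15288). The first stretch printed is the boundary at which ribosomal RNA gives way to messenger RNA, since the ratio of one to the other is the main quantity below. It holds the last 25 bases of mt-Rnr2, mt-Tl1 in capitals and the first 25 bases of mt-Nd1 (chrM:2651-2775, plus strand, GRCm38).
mt-Rnr2 end, mt-Tl1, mt-Nd1 start: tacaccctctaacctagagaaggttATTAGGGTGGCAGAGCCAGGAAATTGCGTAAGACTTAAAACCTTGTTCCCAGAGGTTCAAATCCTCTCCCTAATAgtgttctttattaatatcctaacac

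Another pair of stretches shows how closely a nuclear copy can match a mitochondrial gene. The first 60 bases of mt-Co3 (chrM:8607-8666, plus strand), a complex IV subunit gene that is not among the 8, are the same letters as the first 60 bases of the nuclear pseudogene Gm28437 (chr1:24613912-24613971, minus strand).
mt-Co3: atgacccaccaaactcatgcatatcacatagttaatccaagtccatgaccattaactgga
Gm28437: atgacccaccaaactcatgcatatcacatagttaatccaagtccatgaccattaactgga

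The libraries held 17800113 to 31261121 counts, and the 8 RNAs together took 3.50% to 4.57% of them, so counting error is small beside the spread between libraries. Replicates 2 to 5 of 30 months stood apart from the other 21 libraries. In them the 10% of nuclear genes with the highest GC content exceeded the 10% with the lowest by a median log2 difference of 1.08 to 1.98. The same gap was 0.13 in the remaining library of that age, replicate 1, and ran from -0.25 to 0.15 among the younger animals. Results at 30 months are therefore given with these 4 libraries, without them and after a correction for GC content. Markers of the labelled tissue were present in every library: all 10 neuron, 8 astrocyte and 8 oligodendrocyte markers were detected, with Snap25, a gene of synaptic vesicle fusion, at 1715 to 2830 CPM (counts per 1000000 counts of the library). The 10 transcripts listed for liver summed to 12.8 to 243 CPM and those of choroid plexus to 54.1 to 969 CPM. The lowest liver sums rest largely on Trf, which averaged 10.9 CPM at 2 months. In these bulk samples fewer cells of a type and less RNA per cell cannot be told apart.

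All levels are in CPM of the library's total count. Per kilobase of gene, the mean over the 20 libraries of 2 to 24 months put mt-Cytb highest with 5759 CPM per kilobase, with a range of 5220 to 6384. It was followed by mt-Nd1 at 5282, mt-Co1 at 4450, mt-Nd2 at 3639, mt-Rnr2 at 3011, mt-Nd5 at 2894, mt-Rnr1 at 2775 and mt-Nd4 at 2381 CPM per kilobase. Each neighbouring pair in this order overlapped in range over the 20 libraries. Within each of these libraries, mt-Nd1 stood above mt-Co1, mt-Co1 above mt-Nd2 and mt-Nd2 above mt-Rnr2. The other neighbouring pairs changed order in some libraries. In these means both ribosomal RNAs stood below mt-Cytb, mt-Nd1, mt-Co1 and mt-Nd2 per length. These are levels in the libraries, and how the kit captured ribosomal beside messenger RNA was not tested.

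Parts of the mitochondrial genome have near-identical copies in the nuclear chromosomes. Each transcript was split into all its words of 50 bases, and the share of words found in an annotated nuclear transcript was counted. No word of mt-Rnr1, mt-Nd1 or mt-Cytb was shared, and 1.04% of those of mt-Rnr2, 7.61% of those of mt-Nd5 and 8.19% of those of mt-Nd2 were. For mt-Co1 the share was 51.1%, led by the pseudogene Gm29216 (chromosome 1, 24615706 to 24616197), and for mt-Nd4 it was 62.2%, with Gm28439 (chromosome 1, 24611535 to 24612410). How reads that match several places were treated is not given in the sources used here, so the levels of these 2 genes are uncertain. Counted per 1000 unshared words instead of per kilobase, mt-Co1 stood at 9406 and mt-Nd4 at 6535 CPM, above the 6016 of mt-Cytb, while mt-Nd5 stayed at 3219.

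Of the 7 messenger RNA rows outside the 8, the 6 rows mt-Co2, mt-Atp8, mt-Atp6, mt-Co3, mt-Nd3 and mt-Nd4l had at most 2 counts in any library, and 4 of them had none in all 25. A count of 0 allows up to 0.169 CPM in the smallest library, for counting error only, but these genes are reported only as listed at or near 0. Of the words of mt-Co2, mt-Atp6, mt-Co3, mt-Nd3 and mt-Nd4l, 98.0% to 100% lie in nuclear transcripts, led by pseudogenes on chromosome 1 between 24612407 and 24615565. The remaining row, mt-Atp8, shared no word with an annotated nuclear transcript. The search covered such transcripts alone, so a nuclear copy outside them would not have been found. The nuclear copies took few counts themselves: Gm28437 had 5 to 25 per library, and the highest, Gm28438, a copy of mt-Nd3, had 149 to 346. No statement on complex V, whose mitochondrial subunits mt-Atp6 and mt-Atp8 are among these rows, can be drawn from the table.

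**Figure D1:**
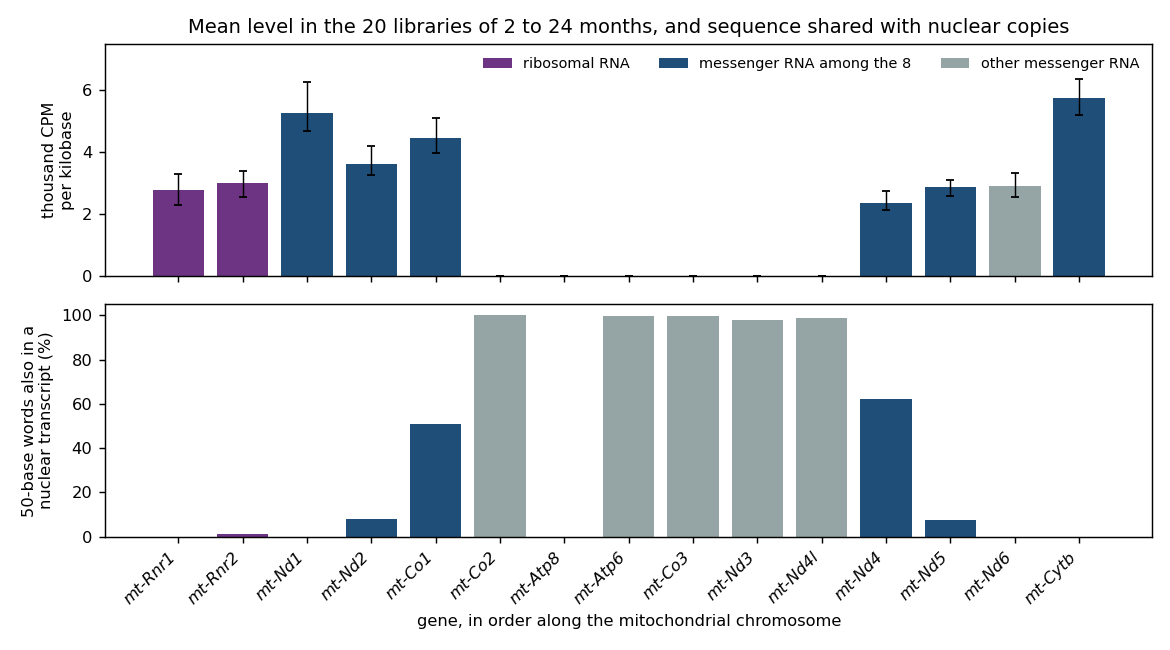
Upper panel, mean level in CPM per kilobase divided by 1000 over the 20 libraries of 2 to 24 months (bars; whiskers, lowest and highest library) for the 15 ribosomal and messenger RNA genes in chromosomal order; lower panel, percentage of each transcript's 50-base words that also occur in an annotated nuclear transcript. The rows with 98.0% to 100% shared words have no visible bar in the upper panel, nor has mt-Atp8, which shares none.

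From 2 to 24 months the fitted values of both ribosomal RNAs were 1.12-fold to 1.20-fold those of 2 months at 9, 15 and 24 months. For mt-Rnr1 the rise passed the test at 9 and 24 months, and for mt-Rnr2 at 9 and 15 months. Among the messenger RNAs only mt-Co1, at 9 months, passed. With mt-Rnr1 the levels were 2199, 2339, 2261, 2389 and 2573 CPM in replicates 1 to 5 of 2 months. They were 3084, 3157, 2465, 2667 and 2535 CPM at 9 months, 2974, 2825, 2773, 2487 and 2454 at 15 months and 2655, 2604, 2913, 2747 and 2892 at 24 months. Every library of 24 months lay above every library of 2 months, whereas 9 and 15 months each overlapped 2 months. Such a separation, with the older age higher, was seen in 7.96% of the 17799 genes at 24 against 2 months. Of the 8 RNAs, mt-Rnr1 alone showed it.

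The mean of mt-Rnr1 was 2352 ± 143 CPM at 2 months, 2782 ± 318 at 9, 2703 ± 225 at 15 and 2762 ± 138 at 24 months (SD, n = 5). Its log2 fold change against 2 months, from edgeR with TMM scaling, was 0.27 (SE 0.076, adjusted p = 0.026) at 9 months, 0.21 (SE 0.076, adjusted p = 0.0865) at 15 months and 0.22 (SE 0.076, adjusted p = 0.0485) at 24 months. The rise therefore passed an adjusted p of 0.05 at 9 and 24 months and not at 15. With the log2 CPM of the liver transcript Alb alone as a covariate, the change was 0.30 at 24 months and did not pass (adjusted p = 0.0659).

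For mt-Rnr2 the libraries of 2 months stood at 4398, 4190, 4069, 4237 and 4626 CPM. Those of 9 months were at 5388, 5262, 4493, 5108 and 4715, those of 15 months at 5362, 4957, 4969, 4644 and 4552 and those of 24 months at 4696, 4502, 5096, 4830 and 5191 CPM. All 3 older ages overlapped 2 months, through 1 library of each. The mean rose from 4304 ± 215 CPM at 2 months to 4993 ± 377 at 9 months (log2 fold change 0.24, adjusted p = 0.0119). At 15 months it was 4897 ± 319 (0.19, adjusted p = 0.0416), and with the GC correction 0.13, which did not pass (adjusted p = 0.112). At 24 months, at 4863 ± 283 CPM, the change of 0.16 did not pass (adjusted p = 0.0586).

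Over the 20 libraries the 2 ribosomal RNAs moved together, with a Pearson r of 0.93 between their log2 CPM, given as a description since all points share library and depth. Per length, mt-Rnr2 stood 1.06 to 1.11 times as high as mt-Rnr1 in the mean of each of these 4 ages.

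Among the complex I messenger RNAs, mt-Nd1 was the only one of the 6 whose fitted values were below 2 months at 9, 15 and 24 months alike. Its levels were 6000, 5350, 4969, 4978 and 5063 CPM at 2 months and 4973, 4782, 4495, 4753 and 5016 at 9 months. At 15 months they were 4951, 4996, 4870, 4943 and 4946, and at 24 months 4986, 5184, 5435, 4933 and 5475 CPM. The ages overlapped, and the log2 fold changes of -0.11 at 9 (adjusted p = 0.102), -0.09 at 15 (adjusted p = 0.217) and -0.03 at 24 months (adjusted p = 0.647) did not pass. With total counts as the only scaling, mt-Nd1 was called lower at 9 months and mt-Co1 was not called higher. With the GC correction mt-Nd1 fell at 15 months (-0.15, adjusted p = 0.0227). At 24 months its change was 0.02 with the GC correction and 0.04 with Alb as covariate, and neither passed. The other complex I members mt-Nd2, mt-Nd4 and mt-Nd5 had log2 fold changes of -0.10 to 0.11 in these 3 comparisons, with adjusted p of 0.0806 to 0.914.

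The complex IV messenger RNA mt-Co1 stood at 7221, 6527, 6325, 6176 and 6415 CPM at 2 months and at 7906, 7137, 6837, 6602 and 6915 CPM at 9 months. Replicate 1 was the highest library of each age, and the ages overlapped. The log2 fold change was 0.14 (SE 0.041, adjusted p = 0.0229) at 9 months. At 15 months it was 0.11 (adjusted p = 0.0676) and at 24 months 0.05 (adjusted p = 0.36). For mt-Cytb of complex III the values were 0.07, 0.05 and -0.06, with adjusted p of 0.307, 0.545 and 0.362.

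In counts of calls, 3 of the 8 RNAs rose from 2 to 9 months (mt-Rnr1, mt-Rnr2 and mt-Co1), where 14.9% of 17472 genes passed in either direction. At 15 months 1 rose (mt-Rnr2, background 13.1%) and at 24 months 1 (mt-Rnr1, background 22.8%), and none fell. These shares of 8 lie on both sides of the background, and 1 call of 8 is not above it. Between 9 and 15 months edgeR called 0 of 8 (background 10.9%), with 0 at an unadjusted p under 0.05 and 0 by DESeq2 (background 13.1%). From 15 to 24 months it also called 0 (background 24.1%), with 1 at an unadjusted p under 0.05, mt-Cytb, which DESeq2 called lower (background 24.7%). A linear slope over 2 to 24 months was called for 0 of 8 (background 16.8%), with 2 at an unadjusted p under 0.05, mt-Nd2 and mt-Nd4, and 0 by DESeq2 (background 16.1%). The slope of mt-Rnr1 was 0.08 per 10 months on the log2 scale (SE 0.039, adjusted p = 0.17).

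These calls rest on few libraries. Without replicate 1 of 2 months, 5 were called at 9 months, with mt-Nd4, mt-Nd5 and mt-Cytb added and mt-Rnr1 lost. Only mt-Rnr2 was called without replicate 3 of 2 months or without replicate 1 or 2 of 9 months. The call of mt-Rnr2 at 15 months was lost without replicate 1, 2, 3 or 4 of 2 months or 1, 2 or 3 of 15 months. Without replicate 1 of 2 months, mt-Co1 and mt-Nd5 were called in its place. At 24 months, mt-Rnr1 was called only without replicate 5 of 2 months or replicate 2 of 24 months, and mt-Rnr2 joined it in both. When all 25 libraries shared 1 estimate of the spread, none of the 8 was called at 9, 15 or 24 months (backgrounds 2.29%, 1.16% and 5.24%), with nearly the same log2 fold changes (0.27 and 0.24 for mt-Rnr1 and mt-Rnr2 at 9 months).

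Some markers of other cells were also called in the same comparisons. Of 8 microglia markers 1 was higher at 9 months, 2 at 15 and 6 at 24 months, and none lower. Over all 17472 genes 1383, 1066 and 1925 were higher. The summed levels of these markers were 346 to 421 CPM at 2 and 403 to 451 at 24 months. At 30 months 6 were higher and 1 lower than at 2 months, where 27.8% of all genes were higher and 29.9% lower. The summed level of the microglia markers was then 419 to 596 CPM. Of 10 listed liver transcripts 2 were higher at 24 months, where 1925 of 17472 genes were. They were Trf (10.9 ± 0.886 to 16.2 ± 0.941 CPM) and Mup20 (0.106 ± 0.21 to 1.06 ± 0.623 CPM). Whether the counts of Trf came from liver or from brain cells was not tested. The median log2 fold change of the list was 1.53 against 0.00 over all genes. Its summed levels were 12.8 to 183 CPM at 2 and 66.3 to 243 at 24 months. The part of the microglia markers in the changes of the ribosomal RNAs was not tested.

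**Figure D2:**
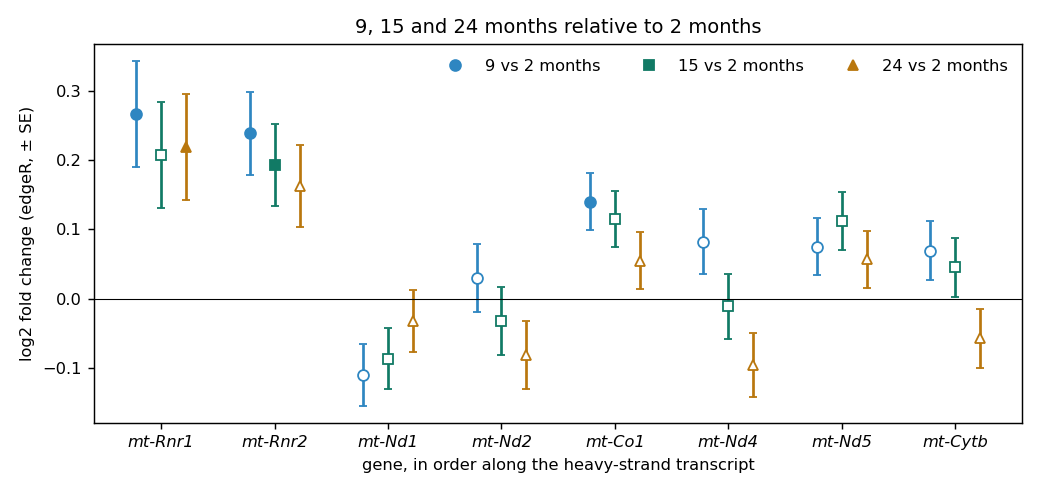
Log2 fold change of each RNA at 9 months (circles), 15 months (squares) and 24 months (triangles) relative to 2 months, with its SE, from edgeR on 5 libraries per age; filled symbols have an adjusted p under 0.05. Both ribosomal RNAs lie between 0.16 and 0.27 at all 3 ages, and the messenger RNAs between -0.11 and 0.14.

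The ratio of ribosomal to messenger RNA is the summed counts of mt-Rnr1 and mt-Rnr2 over those of the 6 messenger RNAs. It needs no scaling between libraries, but how evenly each library captured the 2 kinds of RNA was not tested. As a score over the chosen RNAs the ratio is described here and not tested. At 2 months it was 0.193, 0.212, 0.218, 0.230 and 0.241 in replicates 1 to 5, at 9 months 0.252, 0.266, 0.235, 0.260 and 0.232 and at 15 months 0.261, 0.253, 0.248, 0.229 and 0.228. The libraries of 24 months gave 0.247, 0.232, 0.256, 0.259 and 0.256. The ages 9, 15 and 24 months overlapped each other, and the lower libraries of each overlapped the upper ones of 2 months.

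The means were 0.219 ± 0.0182 at 2, 0.249 ± 0.0151 at 9, 0.244 ± 0.0145 at 15 and 0.25 ± 0.0112 at 24 months (SD, n = 5). Between means of the log2 ratio the differences from 2 months were 0.19, 0.16 and 0.20, which is 1.14-fold, 1.12-fold and 1.15-fold. In order, 2 months was lowest, then 15, 9 and 24 months, whose means differed by less than 1 SD of any of them. With the GC correction the 3 differences were 0.19, 0.15 and 0.20.

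At 30 months the ratio was 0.516 in replicate 1 and 0.865, 0.768, 0.738 and 0.669 in replicates 2 to 5. All 5 libraries lay above all 20 younger ones, whose highest was 0.266, and replicate 1 was the lowest of the 5. The mean was 0.711 ± 0.13, and the mean of the log2 ratio was 1.69 above that of 2 months, which is 3.22-fold. Replicate 1 alone differed from 2 months by 1.24 on the log2 scale. After the GC correction the ratios were 0.523 in replicate 1 and 1.003, 0.913, 0.863 and 0.790 in the others, 3.67-fold higher than at 2 months between means of the log2 ratio.

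Ribosomal RNA took 0.666% ± 0.0325 of all counts at 2 months, 0.777% ± 0.0679 at 9, 0.76% ± 0.054 at 15, 0.763% ± 0.0419 at 24 and 1.58% ± 0.183 at 30 months (SD, n = 5). The 6 messenger RNAs took 3.06% ± 0.216, 3.12% ± 0.161, 3.12% ± 0.0506, 3.05% ± 0.0974 and 2.27% ± 0.424. At 30 months the messenger RNA share was 3.02% in replicate 1, within the range of the younger libraries, and 1.98% to 2.19% in replicates 2 to 5, below all of them. The ribosomal share was high in all 5.

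**Figure D3:**
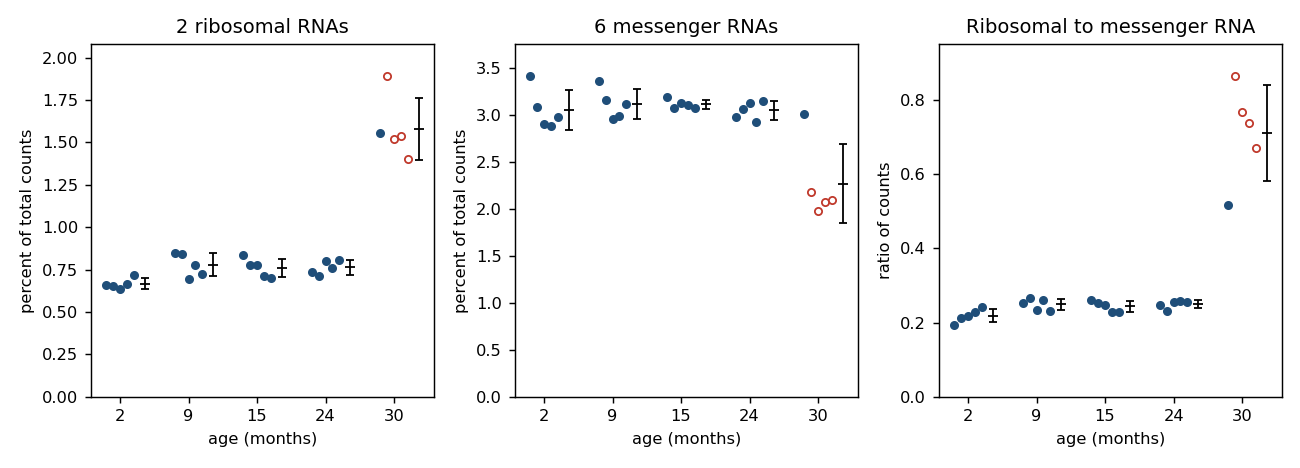
Percentage of total counts taken by the 2 ribosomal RNAs (left) and the 6 messenger RNAs (middle), and the ratio of the 2 sums (right), by age; points are libraries in replicate order, open red points are replicates 2 to 5 of 30 months, and bars are mean ± SD of 5. The ratio is 0.193 to 0.266 in the 20 younger libraries and 0.516 to 0.865 at 30 months.

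At 30 months both ribosomal RNAs were higher than at 2 months in every library, whichever way the data were read, while the direction of most messenger RNAs turned with the reading. The level of mt-Rnr1 was 4927 CPM in replicate 1 and 7305, 6272, 6306 and 6152 CPM in replicates 2 to 5. That of mt-Rnr2 was 10638 CPM in replicate 1 and 11602, 8916, 9040 and 7871 CPM in the others. All 5 libraries lay above the highest of the 20 younger ones, 3157 CPM for mt-Rnr1 and 5388 for mt-Rnr2. A separation from all 20 younger libraries, with 30 months higher, was seen in 3.58% of 17799 genes.

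Against 2 months mt-Rnr1 rose by a log2 fold change of 1.33 (SE 0.081, adjusted p = 9.52e-11) and mt-Rnr2 by 1.09 (SE 0.080, adjusted p = 1.43e-09). Without replicates 2 to 5, which leaves 1 library that is assumed to vary like the other ages, the rises were 1.06 (adjusted p = 2.94e-05) and 1.30 (adjusted p = 1.55e-07). With the GC correction they were 2.62 and 2.35. Against 24 months the log2 fold changes were 1.11 and 0.94, and 0.84 and 1.13 without replicates 2 to 5. The predicted gene Gm26917, the only tested row of a list of ribosomal RNAs of the cytoplasm and short nuclear RNAs, also was higher: it stood at 53.2 CPM in replicate 1 and 85.3 to 118 in the others, against 23.3 to 45 in the younger animals. Its part in the result was not tested.

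The 2 ribosomal RNAs were not raised in the same proportion in each library. Relative to the mean of the 20 younger libraries, mt-Rnr1 was 1.86-fold and mt-Rnr2 2.23-fold in replicate 1, while the mean of replicates 2 to 5 was 2.46-fold for mt-Rnr1 and 1.96-fold for mt-Rnr2. Per length the ratio of mt-Rnr2 to mt-Rnr1 was 1.30 in replicate 1 and 0.959, 0.858, 0.865 and 0.772 in the others. Replicate 1 lay above and the other 4 below all 20 younger libraries, which ran from 1.01 to 1.21.

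All 6 messenger RNAs fell at 30 months in the uncorrected comparison with 2 months, so that 8 of 8 RNAs passed (2 higher, 6 lower), where 57.8% of 17799 genes passed (27.8% higher, 29.9% lower). The complex I messenger RNA mt-Nd1 stood at 4243 CPM in replicate 1 and 2736, 2578, 2527 and 2842 CPM in replicates 2 to 5. It was the only messenger RNA of which all 5 libraries lay below all 20 younger ones, whose lowest was 4495 CPM, a separation seen in 3.46% of genes. Its log2 fold change was -0.88 (SE 0.102, adjusted p = 8.64e-07), and -0.32 (adjusted p = 0.0129) without replicates 2 to 5.

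The next largest fall was that of mt-Nd4, another complex I messenger RNA, at 3050 CPM in replicate 1 and 1752, 1460, 1910 and 1544 CPM in the others. Its 30-month libraries all lay below those of 2 months, but replicate 1 lay within the range of 24 months. The log2 fold change was -0.82 (adjusted p = 1.99e-05), and -0.12 (adjusted p = 0.433) in replicate 1 alone. In mt-Cytb, of complex III, the levels were 6311 CPM in replicate 1 and 4241, 3877, 4160 and 4213 in the others (-0.58, adjusted p = 2.75e-05). Replicate 1 again lay within the range of 2 months.

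The complex IV messenger RNA mt-Co1 was at 7517 CPM in replicate 1, above all 5 libraries of 2 months, and at 5047, 4313, 4562 and 4287 CPM in replicates 2 to 5, below all of them. Its log2 fold change was -0.40 (adjusted p = 0.0026), but 0.19 (adjusted p = 0.0917) in replicate 1 alone. The smallest changes were those of the complex I members mt-Nd2 (-0.21, adjusted p = 0.00203) and mt-Nd5 (-0.20, adjusted p = 0.0109). In replicate 1 alone they were -0.12 and 0.11, and neither passed.

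Without replicates 2 to 5 the calls were thus 2 higher and 1 lower, mt-Nd1, where 8.53% of 19208 genes passed (5.19% higher, 3.34% lower). With all 5 libraries and the GC correction, 7 of 8 were higher and none lower, where 45.5% passed (24.5% higher). The corrected log2 fold changes of the messenger RNAs were 1.06 for mt-Nd2, 0.90 for mt-Nd5, 0.38 for mt-Co1, 0.33 for mt-Nd4, 0.30 for mt-Cytb and 0.13 for mt-Nd1, of which mt-Nd1 did not pass (adjusted p = 0.264). With both changes made together, an alternative added after the data were seen, 4 were higher (mt-Rnr1, mt-Rnr2, mt-Co1 and mt-Nd5) and mt-Nd1 lower (-0.23, adjusted p = 0.049; background 8.54%). Against 24 months the uncorrected calls were 2 higher and 5 lower (background 54.5%), with mt-Nd2 not passing (adjusted p = 0.0559). There the GC correction gave 7 higher and none lower (background 41.4%), and the comparison without replicates 2 to 5 gave 2 higher and mt-Nd1 lower, both without (background 3.85%) and with the GC correction (background 4.20%).

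The correction is weakly grounded for these RNAs. Their GC content runs from 35.4% in mt-Rnr2 to 39.9% in mt-Co1. Of the 13801 nuclear genes that set the correction, 33 had a GC content at or under the lowest of the 8 and 710 at or under the highest. In replicates 2 to 5 the expected log2 shift was -1.75 to -1.13 for mt-Rnr2 and -1.24 to -0.69 for mt-Co1.

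The RNAs differed among themselves in these libraries, and the part of GC content in this was not tested. The mean of replicates 2 to 5 relative to the younger mean was 0.913 for mt-Nd2 and 0.508 for mt-Nd4, whose GC contents are 35.7% and 35.6%. It was 0.528 for mt-Nd1 (GC 37.6%) and 0.83 for mt-Nd5 (GC 37.1%). Replicate 1, whose GC gap of 0.13 lay within the range of the younger libraries, had ratios of 0.839 for mt-Nd1 and 0.93 to 1.09 for the other messenger RNAs.

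**Figure D4:**
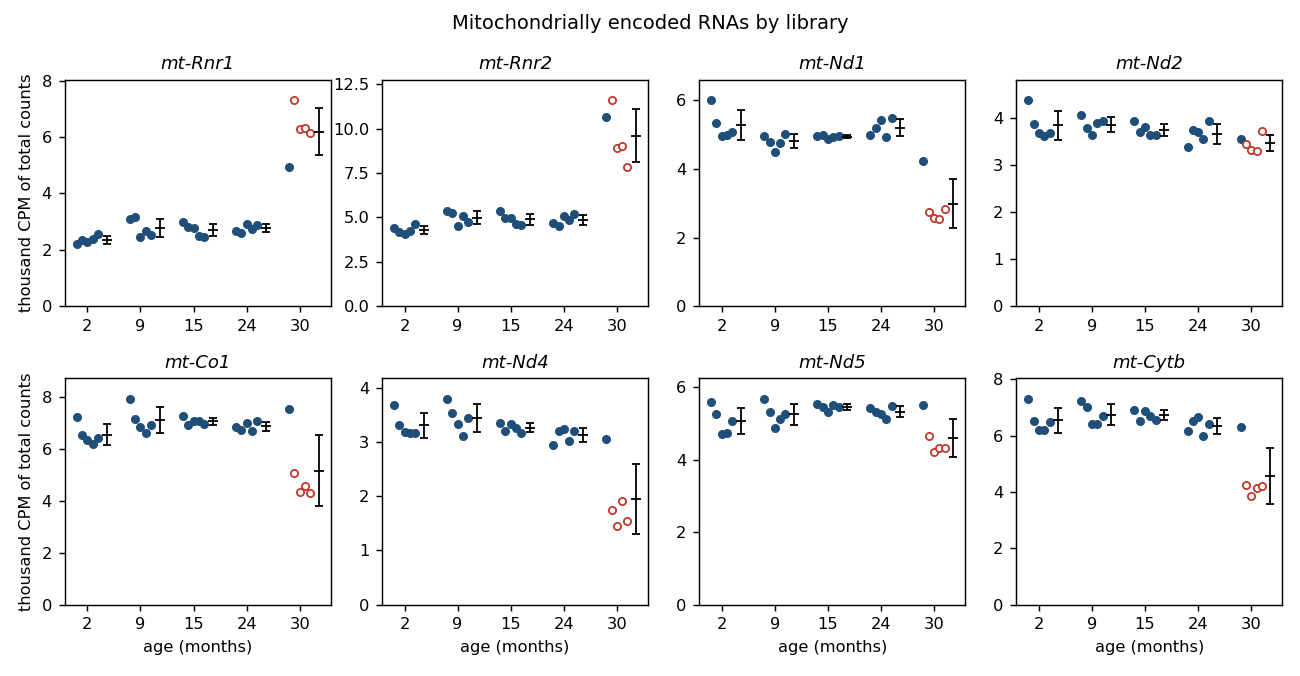
Level of each of the 8 RNAs in CPM divided by 1000, by age; points are libraries in replicate order, open red points are replicates 2 to 5 of 30 months, and bars are mean ± SD of 5 libraries. Both ribosomal RNAs are high in all 5 libraries of 30 months, and replicate 1 stands apart from replicates 2 to 5 in mt-Nd1, mt-Co1, mt-Nd4, mt-Nd5 and mt-Cytb.

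**Figure D5:**
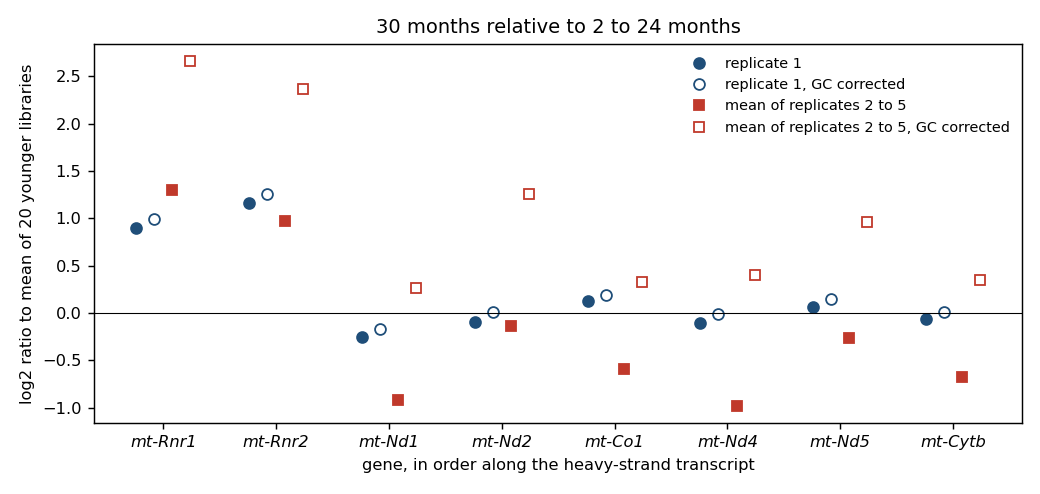
Log2 ratio of the level at 30 months to the mean of the 20 younger libraries, for replicate 1 (circles) and the mean of replicates 2 to 5 (squares), before (filled) and after (open) the GC correction. The ribosomal RNAs lie above 0 in all 4 readings, whereas the 6 messenger RNAs of replicates 2 to 5 lie below 0 before and above 0 after it.

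Within the messenger RNAs the proportions also moved with age. The ratio of mt-Nd1 to mt-Cytb per length was 0.982, 0.979, 0.960, 0.961 and 0.933 at 2 months. It was 0.823, 0.814, 0.839, 0.887 and 0.897 at 9 months, 0.855, 0.915, 0.847, 0.883 and 0.899 at 15 months and 0.967, 0.948, 0.975, 0.988 and 1.02 at 24 months. Thus all 10 libraries of 9 and 15 months lay below all 10 of 2 and 24 months, which did overlap each other. This pair was picked after its values were seen, so the separation is a description with no test.

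At 30 months the same ratio was 0.804, 0.771, 0.795, 0.726 and 0.806, below every younger library. After the GC correction the 30-month libraries read 0.808 to 0.908, overlapping 9 and 15 months. The younger ages hardly moved with it, with corrected means of 0.963, 0.852, 0.877 and 0.984. Markers of oligodendrocytes, the myelin-forming cells, moved over the same ages: 4 of 8 were lower at 9 and 5 of 8 at 15 months than at 2 months, and none higher, where 1216 and 1215 of 17472 genes were lower. Their summed level was 5326 to 6609 CPM at 2, 4997 to 6026 at 9, 5057 to 5438 at 15 and 6182 to 6649 at 24 months. At 24 months 1 marker was higher than at 2 months, Mbp (log2 fold change 0.25), and 2 lower, Cldn11 (-0.33) and Mog (-0.32). Over all genes 1925 were higher and 2052 lower. At 30 months the sum was 5909 to 7725 CPM, with 3 markers higher and 3 lower than at 2 months. There 27.8% of all genes were higher and 29.9% lower. The part of these markers in the ratio was not tested.

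Across the 20 younger libraries the messenger RNAs differed in how they moved together. The log2 CPM of mt-Nd4 and mt-Cytb had an r of 0.89 and that of mt-Co1 and mt-Nd5 an r of 0.82, while mt-Nd1 with mt-Rnr1 gave -0.24. These values describe 20 libraries that share depth and scaling between genes.

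By the same measure, the nuclear genes most like the mean of the 6 messenger RNAs, among 11356 compared, were the homeobox gene Meis2 (r = 0.76), the phosphatase inhibitor Ppp1r2 (0.75), the mitochondrial outer membrane channel Vdac2 (0.74), the synaptotagmin Syt6 (0.74) and the homeobox gene Pbx3 (0.74). The genes most like the mean of the 2 ribosomal RNAs were the neurofilament gene Nefl (0.84), the lysosomal membrane gene Lamp2 (0.83), the lipid kinase Pip4k2a (0.82), Lrrc1 (0.81) and the GTPase Rheb (0.81). These are the highest of many values, given with no p.

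On the opposite, light strand lies mt-Nd6 (GRCm38 chromosome M, 13552 to 14070), a further complex I messenger RNA, whose end overlaps that of mt-Nd5. Its libraries were at 1596, 1482, 1329, 1361 and 1421 CPM at 2 months and at 1631, 1623, 1671, 1567 and 1732 CPM at 24 months. Replicate 1 of 2 months lay among those of 24 months and the other 4 below them. It rose by a log2 fold change of 0.18 (SE 0.040, adjusted p = 0.00228) at 24 months, and along 2 to 24 months (adjusted p = 0.00312). At 30 months, at 1179 to 1625 CPM, the change of -0.12 did not pass (adjusted p = 0.197). Whether strand was used in counting is not given in the sources used here, so reads of mt-Nd6 and of the heavy-strand transcript opposite it cannot be told apart.

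The 22 transfer RNAs together summed to 100 to 164 CPM per library, and 5 had no count in any. Their genes are 59 to 75 bases long. Whether their counts came from mature transfer RNA or from longer transcripts that span them was not tested. Of the 16 tested at 24 against 2 months 3 passed, below the share of 22.8% over all genes: mt-Tc (0.51, adjusted p = 0.000956) and mt-Tn (0.74, adjusted p = 0.016) rose and mt-Ti fell (-0.71, adjusted p = 0.0123). At 9 months mt-Tm (0.48, adjusted p = 0.00412), mt-Tr (0.62, adjusted p = 0.00825) and mt-Tn (0.68, adjusted p = 0.0399) rose, where 14.9% of all genes passed. At 30 months mt-Tm, mt-Tn and mt-Tc were higher than at 2 months and mt-Ti lower, where 57.8% of all genes passed. After the GC correction 12 of 16 were higher and 0 lower, where 24.5% of all genes were higher. The GC content of those tested ran from 22.1% in mt-Tr to 44.9% in mt-Tm. Of the 13801 nuclear genes that set the correction, 33 lay at or under 35.4%, so it is weakly grounded for the low ones. The boundary gene mt-Tl1 printed above stood at 7.77 to 23.2 CPM, and its changes of 0.37 at 9 (adjusted p = 0.224) and -0.40 at 30 months (adjusted p = 0.155) did not pass.

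The nuclear genes that make, process and use these RNAs were called in small numbers at 24 against 2 months, where 22.8% of all genes passed. Of 17 genes of mitochondrial DNA transcription and replication 0 rose and 1 fell, the DNA polymerase gene Polg (65.6 ± 1.05 to 62.0 ± 2.48 CPM, log2 fold change -0.10, adjusted p = 0.0376). Of 21 RNA processing and stability genes 1 rose and 2 fell: Hsd17b10, a subunit of the ribonuclease that cuts the transfer RNA 5′ ends, rose by 0.17 (adjusted p = 0.0386). The poly(A)-removing enzyme gene Pde12 (-0.18, adjusted p = 0.00643) and Fastkd1 (-0.17, adjusted p = 0.0243) fell. The median log2 fold change of the 2 lists was 0.03 and -0.01, against 0.00 for all genes.

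Among 21 genes that modify mitochondrial ribosomal RNA or assemble its ribosome, 1 rose and 2 fell. The methyltransferase gene Trmt61b rose by 0.26 (adjusted p = 0.0372), while the RNA helicase gene Dhx30 (-0.10, adjusted p = 0.00708) and the 16S RNA methyltransferase gene Mrm1 (-0.18, adjusted p = 0.0493) fell. Of 11 mitochondrial translation factors edgeR called 0, with 2 at an unadjusted p under 0.05, Gfm2 and Taco1, and 0 by DESeq2. The protein Lrpprc binds and stabilises mitochondrial messenger RNAs with its partner Slirp, and both were picked here after their values were seen. At 9 months Lrpprc fell by 0.16 on the log2 scale (adjusted p = 0.00227), and at 24 months its change was -0.09 (adjusted p = 0.0541), while for Slirp the values were 0.20 (adjusted p = 0.0611) and -0.10 (adjusted p = 0.337).

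The nuclear-encoded partners of the 6 messenger RNAs in the respiratory chain were called in numbers near that share of all genes, 22.8%. Of 18 complex I subunits 2 rose, Ndufb9 (0.10) and Ndufb8 (0.11), and 2 fell, Ndufs1 (-0.09) and Ndufa9 (-0.08). Of 9 complex III subunits Uqcrq alone rose (49.5 ± 0.624 to 55.3 ± 3.17 CPM, 0.15, adjusted p = 0.00512). For complex IV, Cox6c (0.12) and Cox6a1 (0.10) rose and Cox7a2 (-0.09) fell, of 10. Of 12 regulators of mitochondrial biogenesis, the transcription factor gene Nrf1 (0.22, adjusted p = 0.00138) and the factor subunit gene Gabpb1 (0.19, adjusted p = 0.00766) rose and the coactivator gene Ppargc1b fell (-0.23, adjusted p = 0.0099), as did the transcription factor gene Yy1 (-0.14).

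At 30 months against 2 months these lists changed in larger numbers with all libraries than without replicates 2 to 5, as did all genes, of which 57.8% passed with them and 8.53% without. Of the 17 transcription and replication genes 1 was higher and 11 lower with all libraries, and 0 and 0 without those 4. Of the 21 processing genes 4 were higher and 11 lower, and again 0 and 0. For complex IV the counts were 9 higher and 1 lower of 10, against 1 and 0 without them. With all libraries and the GC correction, 2 transcription and replication genes were higher and 5 lower, and 7 processing genes were higher and 8 lower. All 10 complex IV genes were then higher, where 24.5% of all genes were higher and 45.5% passed in either direction. Both mitochondrial ribosomal RNAs were higher in each reading.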

How the data were processed

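The authors deposited raw counts per Ensembl gene; per the submitters' processing notes, reads were base-called with CASAVA 1.7, aligned with STAR 2.4.1d to GRCm38 and counted with featureCounts 1.4.6-p4. The annotation release, strand setting and treatment of reads with several matches are not given in the sources used here. Of 47729 genes, 47310 matched GENCODE M21. The deposited RPKM values were not used.

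Libraries of 2 to 24 months (20) were fitted together with edgeR 4.0.16 in R 4.3.3 (filterByExpr, TMM, robust quasi-likelihood fit, 1 mean per age or a slope). Comparisons with 30 months used all 25. P-values are two-sided, Benjamini-Hochberg adjusted over all genes tested, with 0.05 as threshold, and measure only the spread between these libraries. The tests were checked on simulated counts. The GC correction fits a curve (loess, span 0.4) of the log2 ratio to the mean library on GC content, per library, over 13801 nuclear protein-coding genes of at least 1 CPM. DESeq2 1.42.0 and other settings were alternatives. All 8 RNAs are named, with other mitochondrial rows past the threshold, up to 3 genes per list by smallest p at 24 months, and the 5 most alike genes by r (pseudocount 0.5 CPM, mean of at least 5 CPM). Outside this rule, Ndufb8, Yy1, Gfm2, Taco1, mt-Tr, Lrpprc and Slirp were named after their values were seen. The 8 RNAs and the lists were chosen with earlier results of these data known. Sequences come from the GENCODE M21 transcripts of GRCm38.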

Additional observations from a re-analysis of the deposited data

Results flagged for a closer look

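In 5 of 45 groups of 5 libraries tested, the highest or lowest library was farther from its nearest neighbour than 0.71 of the group's range. Chance flags about 1 in 20 groups of like libraries. These groups share libraries, and replicates 2 to 5 of 30 months stood apart by GC content. The 5 flags therefore cannot be set against that rate. Of these, 4 concern replicate 1 of 30 months, whose messenger RNAs were high beside those of replicates 2 to 5: mt-Nd1 at 4243 CPM against 2527 to 2842, mt-Co1 at 7517 against 4287 to 5047, mt-Nd4 at 3050 against 1460 to 1910 and mt-Cytb at 6311 against 3877 to 4241. The other is mt-Nd4 in replicate 1 of 2 months, at 3688 CPM against 3164 to 3311 in the other 4 libraries of that age. That library was also the highest of its age in the other 5 messenger RNAs, and had the lowest ratio of ribosomal to messenger RNA of all 25, 0.193.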

How the results depend on the processing

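No paired analysis was possible from the labels, because replicates were numbered in accession order and the labels name no pairs. In the row mt-Ts1, replicates 1 and 3 were the highest libraries at all 5 ages, as given below. No block was fitted for this. The number of the 8 RNAs called was 3 at 9 months and 0 with all 25 libraries in the fit. At 15 months it was 1, with 0 without the filter or with all 25 libraries. DESeq2 gave 4, and a fit with the liver transcript Alb as covariate (the liver covariate) gave 3. The GC correction also gave 1, with mt-Rnr2 lost and mt-Nd1 called lower. At 24 months it was 1, with 0 under DESeq2's size factors in edgeR, without the filter or with all 25 libraries, 2 under total counts alone or DESeq2, 2 under the liver covariate (mt-Rnr2 and mt-Nd5, with mt-Rnr1 lost) and 3 under the GC correction. From 9 to 15 months the GC correction gave 1, and from 15 to 24 months DESeq2 and the GC correction gave 1 each. For 30 against 2 months (8) it was 3 without replicates 2 to 5 and 5 with the GC correction too, and against 24 months (7) it was 3 and 3. The slope over all 25 libraries called 7 and turned mt-Co1 to -0.0123 per month.

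Leaving out 1 library gave 1 to 5 calls at 9 months, 0 to 2 at 15, 0 to 2 at 24, 0 from 9 to 15 and from 15 to 24 months and along the slope, 8 for 30 against 2 and 7 to 8 for 30 against 24 months. The log2 difference of the ratio then ran from 0.15 to 0.23 at 9 months, 0.12 to 0.20 at 15, 0.15 to 0.23 at 24 and 1.61 to 1.80 at 30 months, and was 1.24 without replicates 2 to 5. All messenger RNA rows, counts per kilobase or mean log2 counts moved it to between 1.67 and 1.75 at 30 months.

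Values that passed before or after the change turned direction in comparisons with 30 months and in the slope that includes it. Among younger ages some values that passed in neither reading changed sign: for 24 against 15 months the GC correction moved mt-Rnr2 from -0.03 to 0.10, mt-Nd2 from -0.05 to 0.08 and mt-Co1 from -0.06 to 0.04. For 30 against 24 months the GC correction gave mt-Nd1 0.11, mt-Nd2 1.08, mt-Co1 0.28, mt-Nd4 0.36, mt-Nd5 0.78 and mt-Cytb 0.31, and for 30 against 2 months mt-Nd1 0.13, mt-Nd2 1.06, mt-Co1 0.38, mt-Nd4 0.33, mt-Nd5 0.90 and mt-Cytb 0.30. Without replicates 2 to 5, mt-Co1 was 0.19 and mt-Nd5 0.11 against 2 months, and 0.14 and 0.0516 against 24 months. With both, mt-Co1 was 0.27, mt-Nd5 0.21 and mt-Cytb 0.0229 against 2 months, and mt-Co1 0.17, mt-Nd4 0.0232, mt-Nd5 0.10 and mt-Cytb 0.0316 against 24 months. The cause was not tested.

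Over all genes, the calls at 9 months fell from 2599 to 407 with all 25 libraries in the fit, at 15 months from 2281 to 206 (1457 with the GC correction) and at 24 months from 3977 to 932 (2074 with the liver covariate). From 9 to 15 months they went from 1904 to 3 (963 with the GC correction), from 15 to 24 months from 4214 to 168 (2151), and for the slope from 2927 to 954 with the liver covariate and 8305 over all 25. Comparisons with 30 months went from 10281 to 1639 against 2 months and from 9697 to 739 against 24 months without replicates 2 to 5 (1641 and 807 with the GC correction too). With total counts as the only scaling, the split of higher and lower calls moved from 1383 and 1216 to 964 and 1771 at 9 months, from 1925 and 2052 to 2173 and 1756 at 24, from 777 and 1127 to 1130 and 820 for 15 against 9, from 2076 and 2138 to 2540 and 1699 for 24 against 15, and from 1474 and 1453 to 1766 and 1148 for the slope. For 30 months it moved from 4952 and 5329 to 6040 and 4665 against 2 months, and from 4528 and 5169 to 5427 and 4705 against 24 months.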

Other observations

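The transfer RNA row mt-Ts1, which encodes a serine transfer RNA on the light strand at the end of mt-Co1, differed between libraries of the same age. It stood at 10.2 and 9.34 CPM in replicates 1 and 3 of 2 months and at 2.08 to 2.75 in replicates 2, 4 and 5. At 9 months replicates 1 and 3 were at 12.2 and 11.2 CPM and the others at 2.28 to 3.01, and at 30 months replicates 1 and 3 were at 7.52 and 9.06 and the others at 2.87 to 3.86. At 15 months they were at 7.76 and 10.8 CPM and the others at 5.01 to 5.45, and at 24 months at 8.50 and 9.83 against 7.03 to 7.49. Replicates 1 and 3 were thus the highest libraries at all 5 ages. The numbers were given in accession order, and what these libraries share was not tested.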
